A study of Mus musculus with 28 samples.

Results

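Wnt proteins are secreted growth factors that act over short distances, and the 46 genes described here make, receive or restrain that signal: 13 Wnt ligands, 10 Frizzled receptors, 2 LRP co-receptors, 3 LGR receptors, 4 R-spondins, 9 secreted inhibitors, and 5 transcription factors, ligases or feedback targets of the pathway. They were chosen by symbol from a hand-written list, drawn up with earlier results of these data known, and are 46 of the 50600 genes counted. The study sorted stromal and luminal cells from the mammary glands of adult female PdgfrαCre R26mTmG mice to compare cells that descend from Pdgfrα-expressing precursors with cells that do not. RNA sequencing gave 1 library for each of the 4 sorted populations of each mouse, 28 libraries in all.

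All mice were on the C57BL/6 strain, carried both the Cre and the reporter allele, and were described as 10 to 12 weeks old. The 8 groups were stromal cells, GFP+ or tdTomato+, and luminal cells, GFP+ or tdTomato+, each from 4 untreated mice and from 3 other mice given estrogen plus progesterone (E+P). Hormone pellets with 0.14 mg of estradiol and 14 mg of progesterone, left for 14 days, are described in the methods for wild-type mice. In this model Cre is driven by Pdgfrα and switches the reporter from tdTomato to GFP for good, so GFP marks cells that express Pdgfrα and everything that descended from them, whether or not they still express it. The label does not name a cell type, and each population is a sorted mixture.

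Wnt ligands bind a Frizzled together with LRP5 or LRP6 on the receiving cell, which stabilises β-catenin and lets it activate genes through TCF and LEF factors; some ligands, such as Wnt5a and Wnt11, are better known for signalling without β-catenin. R-spondins bind LGR4, LGR5 or LGR6 and remove the ligases ZNRF3 and RNF43, which otherwise take Frizzleds off the cell surface, while SFRP proteins, DKK proteins, WIF1 and NOTUM act outside the cell to limit the signal. In the mammary gland, Wnt4 and R-spondin 1 are known as epithelial factors that support stem and progenitor cells, and progesterone is known to act in part through them.

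The promoters of 4 members are shown because the results below turn on these genes: Wnt5b was the main listed ligand of GFP+ luminal cells, Wnt11 differed in opposite directions between stromal and luminal subsets, and Rspo1 and Axin2 had much higher mean levels in E+P luminal cells. Each is the 250 bases before the annotated start of the gene, 5′ to 3′ on the strand of the gene, from RefSeq on GRCm38.p6. They lie at chr6:119544348-119544597 (Wnt5b, minus strand, GC content 75.2%), chr7:98834862-98835111 (Wnt11, plus strand, 70.8%), chr4:124986180-124986429 (Rspo1, plus strand, 66.8%) and chr11:108920099-108920348 (Axin2, plus strand, 69.2%). Capitals mark a match to the TCF/LEF motif.
Wnt5b: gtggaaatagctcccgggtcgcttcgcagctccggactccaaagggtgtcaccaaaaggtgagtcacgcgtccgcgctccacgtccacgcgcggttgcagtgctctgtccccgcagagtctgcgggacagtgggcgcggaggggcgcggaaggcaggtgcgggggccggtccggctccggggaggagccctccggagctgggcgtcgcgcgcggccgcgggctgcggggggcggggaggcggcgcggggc
Wnt11: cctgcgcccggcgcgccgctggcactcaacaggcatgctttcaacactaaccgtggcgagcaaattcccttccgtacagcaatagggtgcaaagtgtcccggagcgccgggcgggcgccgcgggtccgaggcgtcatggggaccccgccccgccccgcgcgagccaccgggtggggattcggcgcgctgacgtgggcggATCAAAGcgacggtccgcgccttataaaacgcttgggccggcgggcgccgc
Rspo1: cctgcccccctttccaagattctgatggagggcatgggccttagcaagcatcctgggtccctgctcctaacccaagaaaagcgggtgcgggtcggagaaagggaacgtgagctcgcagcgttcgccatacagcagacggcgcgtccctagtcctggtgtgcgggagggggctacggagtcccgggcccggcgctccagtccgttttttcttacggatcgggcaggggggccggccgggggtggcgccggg
Axin2: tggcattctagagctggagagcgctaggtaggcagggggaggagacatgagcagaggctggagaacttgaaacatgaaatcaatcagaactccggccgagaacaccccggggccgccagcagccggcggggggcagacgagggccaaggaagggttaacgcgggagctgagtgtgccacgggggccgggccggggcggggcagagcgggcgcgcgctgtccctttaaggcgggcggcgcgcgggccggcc
The search covered both strands of the promoters of the 29 members that the RefSeq table holds. The TCF/LEF motif CTTTGAT was found in 1 of the 29, Wnt11, on the minus strand starting 51 bases before the gene start, and in 3.21% of the promoters of all genes. The palindromic estrogen response element was in 0 of the 29 and in 0.0639% of all promoters, and the progesterone response element was in 0 of the 29 and in 0.387% of all. These are matches of letters in a short window and not measured binding sites.

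Reads counted on genes ranged from 8623383 to 24583803 per library, so 3 counts corresponded to 0.122 to 0.308 CPM (reads scaled to the library's TMM-adjusted total), a limit that covers counting error only. The labels state a wide range of RNA integrity but no value for a library. Marker genes matched the labels of the sort: in GFP+ stroma the summed level of 6 fibroblast markers was 29461 to 58977 CPM, and in luminal cells the luminal epithelial markers summed to 3731 to 6810 CPM. The tdTomato+ stromal libraries were a mixture, with fibroblast markers at 1713 to 6026 CPM beside pericyte and smooth muscle markers at 5810 to 9330 CPM and skeletal muscle markers at 2276 to 20457 CPM. Luminal epithelial markers in the 4 untreated tdTomato+ stromal libraries were 70.4, 252, 405 and 17.5 CPM in mice 1 to 4. GFP+ luminal cells were high in luminal progenitor markers and tdTomato+ luminal cells in hormone-sensing markers. In such sorted bulk samples, fewer cells of a type and less RNA per cell cannot be told apart.

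Stromal and luminal cells carried different parts of the Wnt system. Over both subsets and treatments, 35 of the 41 members tested differed at an adjusted p under 0.01, 23 higher in stroma and 12 higher in luminal cells, where 63.5% of all genes tested differed (33% higher and 30.5% lower in stroma). Of the 7 secreted inhibitors tested, 6 were higher in stroma and 0 higher in luminal cells. Of the 11 Wnt ligands tested, 6 were higher in stroma and 2 in luminal cells, and the 9 Frizzleds tested gave 4 in each direction. Dkk2, Wnt2b and Wnt16 did not exceed 0.308 CPM in any luminal library. They could pass the filter on counts through stroma alone and could hardly come out higher in luminal cells. The median log2 fold change of the members tested was 1.94, against 0.02 over all genes, and 1.85 with Rspo3, which had 0 counts in the 14 luminal libraries, held at its bound.

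Summed per kilobase of exon, so that genes can be compared, the secreted inhibitors made up the largest class in GFP+ stroma, at 284 ± 12.5 CPM per kb (SD, n = 4) in untreated mice. Sfrp2, a decoy that binds Wnt proteins, gave 73.9% of that sum. The same class stood at 24.5 CPM per kb in untreated tdTomato+ stroma, 5.04 in GFP+ luminal cells and 2.95 in tdTomato+ luminal cells. The 13 ligands listed were spread more evenly, at 62.0 CPM per kb in untreated GFP+ luminal cells, 42.0 in tdTomato+ luminal cells, 38.7 in GFP+ stroma and 8.63 in tdTomato+ stroma. These sums and the shares below leave out other ligands, among them Wnt4, at a mean of 56.4 CPM over the luminal groups. A leading share below is therefore a lead among the 13 listed and not among all ligands. Each population had a ligand profile of its own. Wnt5b gave 84.2% of the ligand sum in untreated GFP+ luminal cells. Wnt5a gave 41.2%, Wnt5b 28.3% and Wnt7b 23.9% in tdTomato+ luminal cells. In GFP+ stroma Wnt2 led with 47.5%, and in tdTomato+ stroma Wnt11 led with 25.6%.

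**Figure D1:**
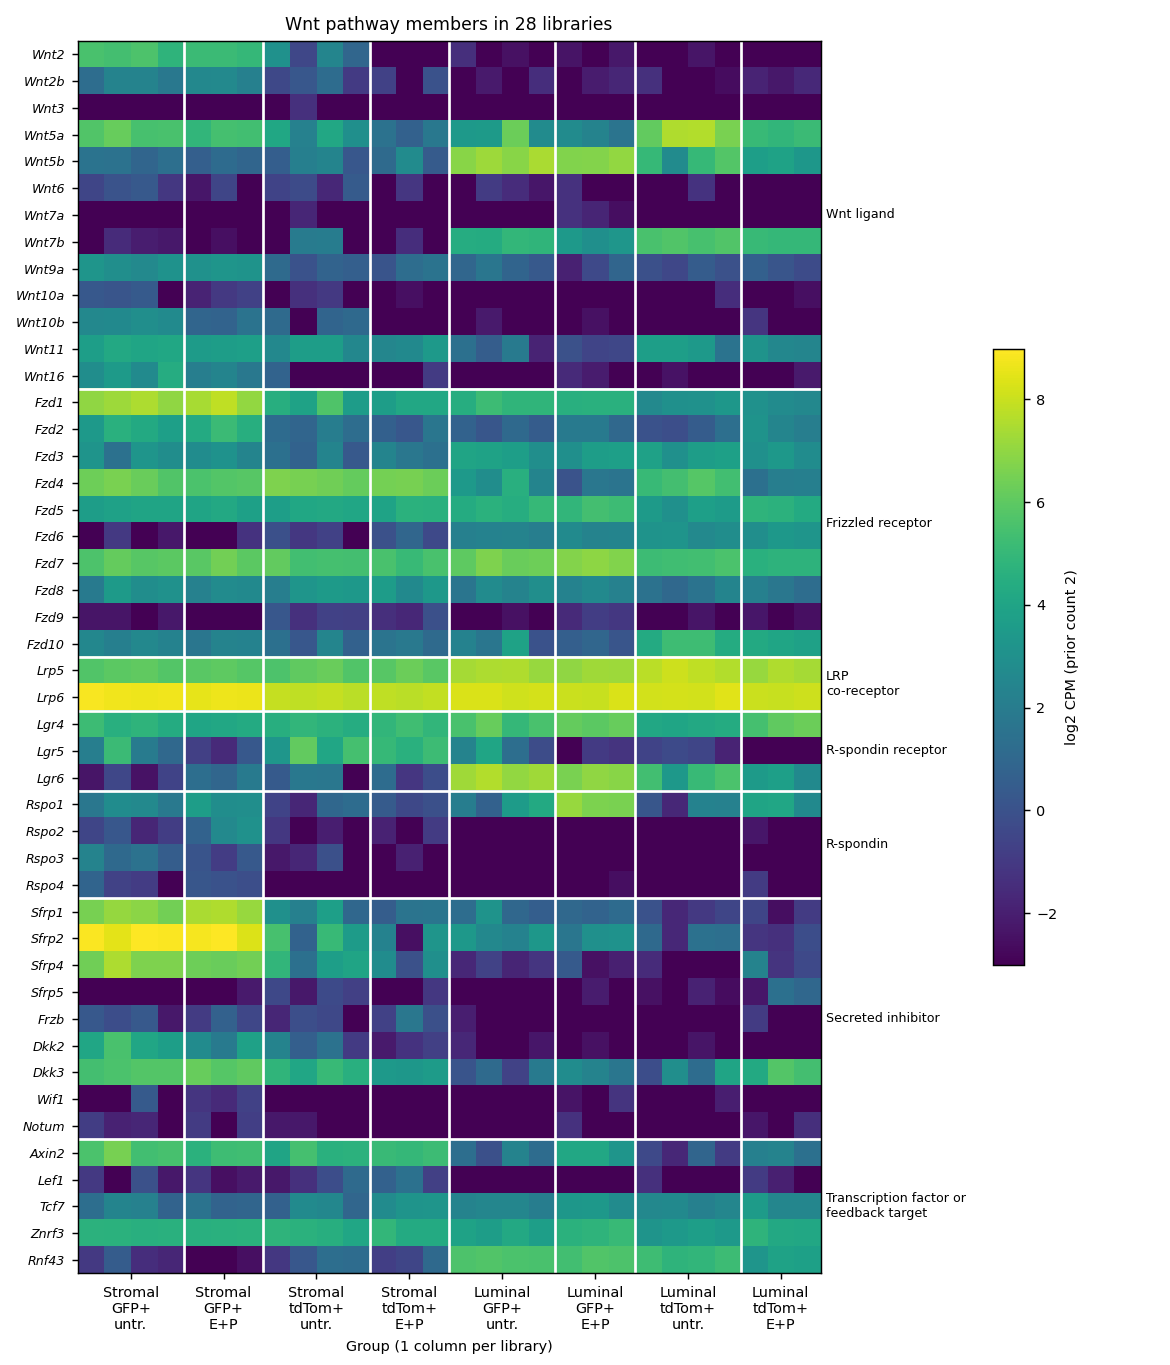
Log2 CPM of the 46 members (rows, by role) in the 28 libraries (columns, by group). Sfrp1, Sfrp2, Sfrp4, Dkk2 and Dkk3 are high in GFP+ stroma, Wnt5b, Lgr6 and Rnf43 are high in luminal cells, and Wnt3, Wnt7a, Fzd9, Wif1 and Notum are at or near 0 in most libraries.

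Among the genes higher in stroma, Dkk2, an inhibitor of LRP co-receptors, was at 13.0 to 46.2 CPM in untreated GFP+ stroma and at most 0.193 CPM in any luminal library. The log2 difference of stroma over luminal cells was 7.19 (SE 0.60, adjusted p = 1.91e-10). Sfrp4, another decoy of the same family, differed by 6.53 (SE 0.53, adjusted p = 1.61e-10), Sfrp2 by 4.81 (SE 0.47, adjusted p = 4.75e-09) and Sfrp1 by 4.62 (SE 0.33, adjusted p = 1.17e-11). The stromal ligands Wnt2b and Wnt16 were higher by 4.17 (SE 0.50, adjusted p = 4.74e-08) and 5.51 (SE 0.88, adjusted p = 7.85e-06). The Wnt16 fit gave no usable error without untreated mouse 1 or without E+P mouse 3, and its adjusted p was then as high as 1. In untreated mice Wnt16 had 0 counts in GFP+ luminal cells, so its mean of 11.6 CPM in GFP+ stroma was at least 37.7-fold higher. The feedback target Axin2 was at 15.7 to 90.3 CPM in stroma and at 0.184 to 18.3 CPM in luminal cells.

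R-spondins were split by lineage. Rspo2 was higher in stroma by 5.67 (SE 0.83, adjusted p = 7.02e-06) and Rspo3 had counts in stroma alone, where untreated GFP+ cells were at least 9.04-fold above the floor of GFP+ luminal cells. Rspo1 was the exception and was higher in luminal cells, with a log2 fold change of -2.29 for stroma against luminal cells (SE 0.39, adjusted p = 1.41e-05). The R-spondin receptors also parted: Lgr5 was higher in stroma by 5.16 (SE 0.76, adjusted p = 3.5e-06), and Lgr6 was lower there by 5.33 on the log2 scale (log2 fold change -5.33, SE 0.35, adjusted p = 2.92e-12).

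On the luminal side, Wnt7b stood at 44.6 to 53.4 CPM in tdTomato+ luminal cells of untreated mice and at 20.4 to 30.4 CPM in the GFP+ ones. In stroma it was at 0 to 0.241 CPM except in untreated tdTomato+ mice 2 and 3, at 3.86 and 3.99 CPM, the libraries with the most luminal epithelial markers. Whether luminal cells in these libraries account for those values was not tested. Its log2 fold change was -7.22 (SE 0.47, adjusted p = 1.71e-12). The ligase Rnf43 was at most 2.37 CPM in any stromal library and 9.24 to 52.4 CPM in luminal ones, a log2 fold change of -6.28 (SE 0.29, adjusted p = 5.53e-16). Wnt5b (-4.19, SE 0.30, adjusted p = 1.17e-11), Fzd6 (-4.42, SE 0.36, adjusted p = 2.32e-11), the co-receptor Lrp5 (-1.41, SE 0.08, adjusted p = 1.12e-14) and Fzd3 (-1.16, SE 0.21, adjusted p = 1.99e-05) were also higher in luminal cells. For Wnt2, Wnt10b and Rspo4, which were at or near 0 in luminal cells, the fit gave no usable error and no call. Wnt2 did not exceed 0.258 CPM in a luminal library, against 27.9 to 48.7 CPM in GFP+ stroma of untreated mice. With the mouse as a block, Wnt6 and Wnt10a, ligands at or near the counting floor, were no longer called (adjusted p = 0.0208 and 0.022).

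Of the 46 members, 5 had too few counts for any test. Wnt3 had counts in a single library, untreated tdTomato+ stroma of mouse 2, at 0.263 CPM. Wnt7a was seen at 0.279, 0.165 and 0.0435 CPM in E+P GFP+ luminal cells and at 0.175 CPM in 1 stromal library. Fzd9 reached at most 1.08 CPM, Wif1 1.20 CPM and Notum 0.448 CPM. Sfrp5 entered the test over all libraries alone, without a call, and was at 0.0818, 2.5 and 1.85 CPM in E+P tdTomato+ luminal cells. Frzb, another SFRP-family decoy, reached 3.17 CPM in 1 tdTomato+ stromal library, and the transcription factor Lef1 reached 2.65 CPM there, with 0 counts in all GFP+ luminal libraries.

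Within the stroma, GFP+ cells expressed more of most of the listed Wnt ligands, R-spondins and secreted inhibitors than tdTomato+ cells of the same mice. Of 39 members tested, 23 differed, 20 higher and 3 lower in GFP+ stroma, and 42% of all genes tested differed (20.6% higher and 21.3% lower). By role, 7 of 10 ligands, 4 of 4 R-spondins and 5 of 6 inhibitors were higher in GFP+ cells, and 0 of these were lower. Among them Rspo2, Rspo3, Rspo4 and Wnt16 were at or near 0 in most tdTomato+ stromal libraries. They could pass the filter on counts through GFP+ stroma alone and could hardly come out lower there. The median log2 fold change was 0.80 over the members tested and -0.01 over all genes. Fibroblast markers and pericyte, smooth muscle and skeletal muscle markers separate the same groups, with the sums given above, and their part in these differences was not tested.

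Wnt2, a ligand known from lung and mammary mesenchyme, was at 46.9, 42.6, 48.7 and 27.9 CPM in GFP+ stroma of untreated mice 1 to 4 and at 8.25, 0.614, 5.24 and 1.80 CPM in tdTomato+ stroma. After E+P it was at 35.7, 35.2 and 31.7 CPM in GFP+ stroma and had 0 counts in tdTomato+ stroma of all 3 mice. The 2 subsets did not overlap in either treatment. In untreated mice the log2 fold change was 3.33 (SE 0.56, adjusted p = 0.000799), and after E+P the level was at least 195-fold higher in GFP+ stroma. Wnt10b, a β-catenin ligand known to restrain fat cell formation, was at 5.89, 6.37, 7.43 and 6.40 CPM in untreated GFP+ stroma and at 2.06, 0, 1.69 and 1.99 CPM in tdTomato+ stroma. It was at 1.74, 1.62 and 2.79 CPM and again at 0 in all 3 mice after E+P, where GFP+ stroma was at least 11.7-fold higher (adjusted p over both treatments = 3.09e-05). GFP+ cells were higher in every mouse for both ligands.

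Wnt16 reached 7.13, 11.5, 6.53 and 21.3 CPM in untreated GFP+ stroma and 4.19, 5.19 and 3.39 CPM after E+P. In tdTomato+ stroma it had counts in 2 of the 7 libraries, at 1.61 and 0.408 CPM. Its log2 fold change was 4.89 (SE 0.88, adjusted p = 0.000367), and no tdTomato+ library reached the lowest GFP+ one. Wnt5a, chosen for naming here after its values were seen because it had the opposite pattern in luminal cells, was at 29.5 to 72.9 CPM in GFP+ stroma and at 1.49 to 18 CPM in tdTomato+ stroma. Wnt2b, Wnt9a and Wnt11 were also called higher in GFP+ stroma, Wnt11 under TMM but not under the other scalings, while Wnt5b, Wnt6 and Wnt10a were not called.

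**Figure D2:**
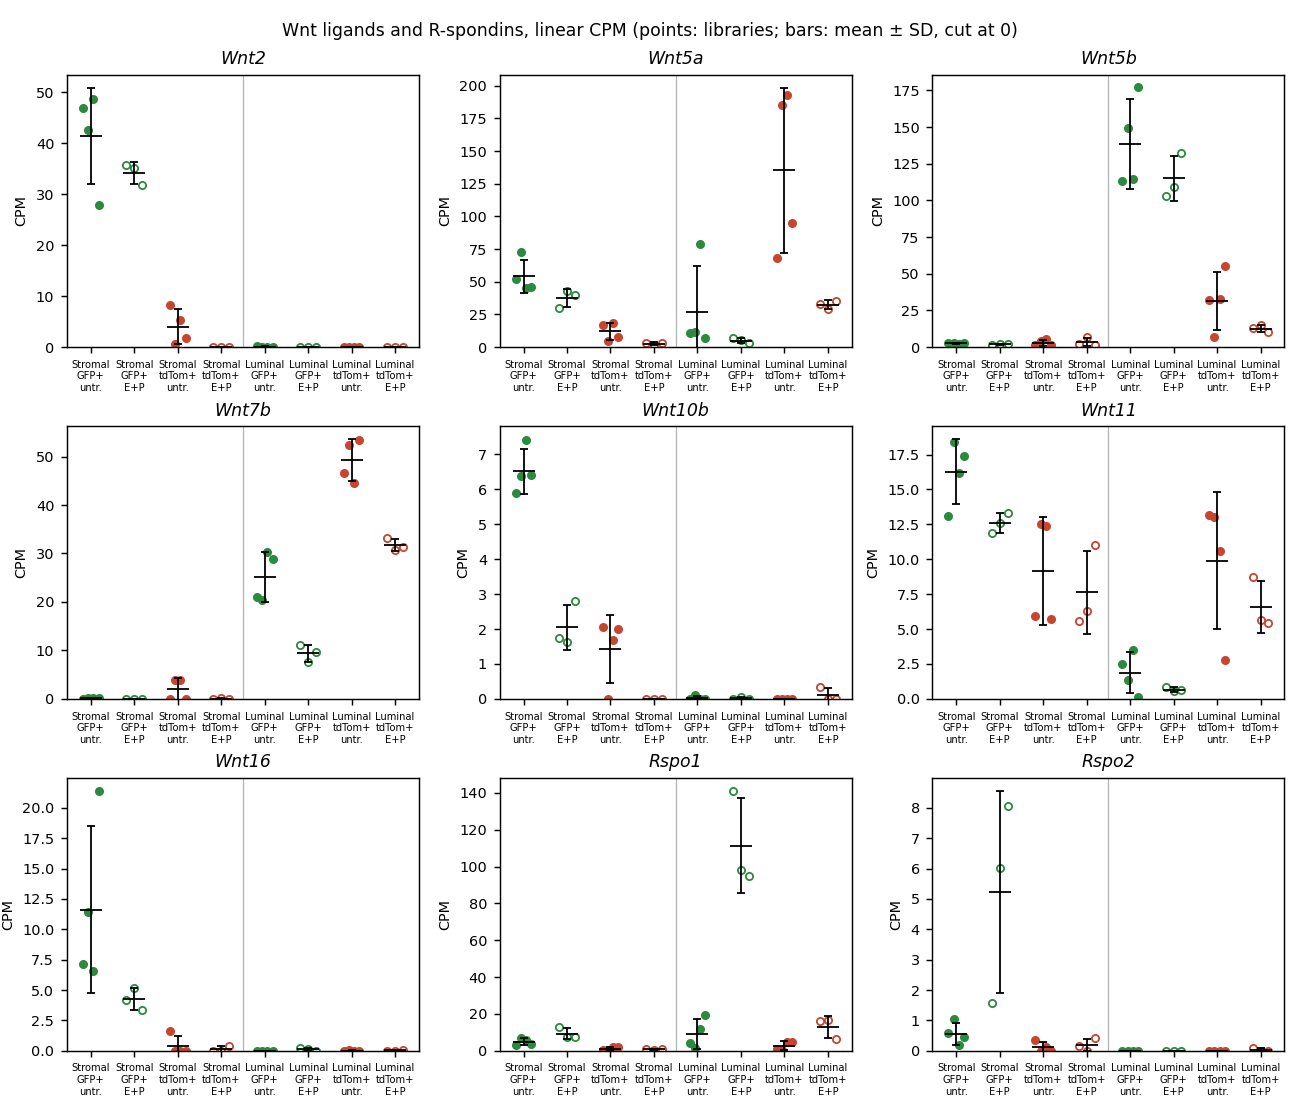
CPM of 9 ligands and R-spondins in each library of the 4 sorted populations, with filled points for untreated mice, open points for E+P mice, and bars for the mean ± SD, cut at 0. Wnt2, Wnt10b and Wnt16 are highest in GFP+ stroma, Wnt5b in GFP+ luminal cells, Wnt7b in tdTomato+ luminal cells, Wnt5a in tdTomato+ luminal cells of untreated mice, and Rspo1 is at 94.7 to 141 CPM in E+P GFP+ luminal cells.

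The secreted inhibitors also differed within stroma. Sfrp2 was at 477, 361, 489 and 484 CPM in untreated GFP+ stroma and at 44.3, 1.58, 33.8 and 11.7 CPM in tdTomato+ stroma. After E+P the levels were 457, 504 and 330 CPM against 4.86, 0.0481 and 9.22 CPM, and the lowest GFP+ library was above the highest tdTomato+ library in both treatments. The log2 fold change was 5.37 (SE 0.78, adjusted p = 0.000118). Sfrp1 was at 85.9 to 187 CPM in GFP+ stroma and 1.30 to 13.6 CPM in tdTomato+ stroma, a difference of 4.99 (SE 0.38, adjusted p = 2.56e-07). Dkk2 was at 3.51 to 46.2 CPM against 0.100 to 5.02 CPM, with a log2 fold change of 4.01 (SE 0.57, adjusted p = 4.48e-05) and GFP+ higher in 7 of 7 mice.

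Rspo2 and Rspo3, agonists that amplify Wnt signalling, were low but higher in GFP+ stroma of all 7 mice. Rspo3 was at 5.02, 2.02, 2.75 and 1.33 CPM in untreated GFP+ stroma and at 0.0896, 0.175, 0.811 and 0 CPM in tdTomato+ stroma, with a log2 fold change of 3.50 (SE 0.76, adjusted p = 0.000873). Rspo2 differed by 3.41 (SE 0.74, adjusted p = 0.000797). By treatment, Rspo2 was called after E+P alone (adjusted p = 0.00204), and Rspo3 and Rspo4 were called in neither. Rspo4 had 0 counts in all tdTomato+ stromal libraries and 0.797 to 1.03 CPM in E+P GFP+ stroma, at least 5.17-fold higher.

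The 3 members lower in GFP+ stroma over both treatments were a receptor of R-spondins, a ligase and a Frizzled. In untreated mice alone none of them was called: Lgr5 differed by -1.61 (adjusted p = 0.172), Rnf43 by -1.57 (0.158) and Fzd4 by -0.22 (0.304). After E+P they differed by -5.71 (adjusted p = 0.00467), -5.27 (0.00397) and -0.73 (0.00431). Lgr5, best known as a stem cell marker of the intestine, was at 4.15, 35.9, 3.77 and 1.96 CPM in untreated GFP+ stroma and at 9.77, 67.8, 16.7 and 43.0 CPM in tdTomato+ stroma. After E+P it was at 0.475, 0.210 and 1.10 CPM against 32.7, 23.9 and 37.0 CPM. The tdTomato+ cells were higher in every mouse, although mouse 2 had the highest level in all 4 untreated populations. The log2 fold change was -3.66 (SE 0.79, adjusted p = 0.00206), and the call was lost without E+P mouse 1 or E+P mouse 2 (adjusted p up to 0.0163). Rnf43 did not exceed 2.37 CPM in stroma and differed by -3.42 (SE 0.79, adjusted p = 0.00139), with GFP+ higher in untreated mice 1 and 2 and lower in the others.

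Fzd4, a receptor for Wnts and for norrin, was at 81.6, 96.1, 75.5 and 52.3 CPM in untreated GFP+ stroma and at 102, 91.7, 82.1 and 70.4 CPM in tdTomato+ stroma. After E+P it was at 48.6, 54.5 and 57.4 CPM against 87.9, 92.4 and 77.7 CPM, so the subsets overlapped in untreated mice and not after E+P. Its log2 fold change of -0.47 (SE 0.12, adjusted p = 0.0034) was not called without E+P mouse 1 or E+P mouse 2 (adjusted p up to 0.0264). Fzd1 and Fzd2 were called higher in GFP+ stroma, as were Lrp6 and Dkk3. With the mouse as a block, Fzd7 was no longer called (adjusted p = 0.0263), while Fzd3, Tcf7 and the feedback target Axin2 were (adjusted p = 0.00323, 0.00423 and 0.00811).

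Within luminal cells the 2 subsets divided the listed ligands between them. Of 27 members tested, 19 differed, 12 higher and 7 lower in GFP+ luminal cells, where 34.7% of all genes tested differed (15.7% higher and 19% lower). Of 5 ligands, 1 was higher in GFP+ luminal cells and 3 were lower, and all 3 LGR receptors were higher when averaged over both treatments. The median log2 fold change was 0.42 over the members and 0.0015 over all genes. With untreated and E+P mice pooled in each subset, 11 were called, and without E+P mouse 2, 12 were.

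Wnt5b, a ligand related to Wnt5a, was at 113, 149.1, 115 and 177 CPM in untreated GFP+ luminal cells and at 32.1, 6.69, 32.4 and 55.2 CPM in their tdTomato+ counterparts. After E+P it was at 103, 109 and 132 CPM against 12.8, 14.8 and 10.1 CPM. No tdTomato+ library reached the lowest GFP+ one, and the log2 fold change was 2.65 (SE 0.34, adjusted p = 5.76e-05). Wnt5a had the reverse pattern, at 68.0, 185, 193 and 95.3 CPM in tdTomato+ luminal cells of untreated mice and at 11, 11.4, 79.1 and 6.68 CPM in GFP+ luminal cells. Mouse 3 stood far above the other GFP+ libraries, and the subsets overlapped through it. After E+P the levels were 33.1, 29.0 and 35.3 CPM against 6.70, 5.06 and 2.87 CPM. Wnt5a differed by -2.54 (SE 0.55, adjusted p = 0.00236), a call lost when untreated mouse 2 or any of the 3 E+P mice was left out (adjusted p up to 0.0177).

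Wnt7b, an epithelial β-catenin ligand, was at 46.6, 52.3, 44.6 and 53.4 CPM in tdTomato+ luminal cells of untreated mice and at 21.0, 20.4, 30.4 and 28.8 CPM in GFP+ luminal cells. The log2 fold change was -1.37 (SE 0.12, adjusted p = 1.46e-06), with GFP+ lower in all 7 mice. Wnt11 was at 13.2, 13.1, 10.6 and 2.81 CPM in tdTomato+ luminal cells of untreated mice and at 2.51, 1.33, 3.53 and 0.161 CPM in GFP+ ones, a difference of -2.84 (SE 0.49, adjusted p = 0.000401). The lowest tdTomato+ library, that of mouse 4, lay below the highest GFP+ library, although GFP+ was lower in every mouse.

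Receptors parted as clearly as ligands. Lgr6, an R-spondin receptor known from skin and mammary progenitors, was at 156, 192, 132 and 152 CPM in untreated GFP+ luminal cells against 40.1, 10.4, 33.5 and 47.3 CPM in tdTomato+ cells, and at 95.1, 125 and 115 CPM against 11.3, 13.3 and 6.31 CPM after E+P. The subsets were separate in both treatments, with a log2 fold change of 2.84 (SE 0.29, adjusted p = 1.11e-05). Fzd10 was higher in tdTomato+ luminal cells, at 19.7, 37.7, 38.1 and 20.7 CPM against 4.77, 3.08, 14.6 and 0.886 CPM in untreated mice. Its log2 fold change was -2.93 (SE 0.48, adjusted p = 0.00032). Fzd1 differed by 1.80 (SE 0.14, adjusted p = 9.55e-07), Fzd6 by -0.74 (SE 0.14, adjusted p = 0.000624) and Fzd4 by -1.28 (SE 0.35, adjusted p = 0.00889). The Fzd4 call was lost in 6 of the 7 fits that left out a mouse, all but the one without untreated mouse 3. Fzd7, Fzd5 and Lgr4 were also called higher in GFP+ luminal cells over both treatments. By treatment, Lgr4 differed by 1.42 (adjusted p = 0.000734) in untreated mice and by 0.09 (adjusted p = 0.795) after E+P. Fzd5 differed by 1.17 (adjusted p = 0.000884) and by 0.53 (adjusted p = 0.0662), so neither was called in E+P mice. Fzd4, at -0.68 after E+P (adjusted p = 0.356), Fzd6 and Sfrp1 were also called in untreated mice alone. Wnt11, Fzd10 and Sfrp2 were called after E+P alone. Wnt5a, Lgr5, Rspo1, Axin2 and Dkk3 were called over both treatments and in neither treatment by itself.

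Lgr5 in luminal cells ran against its direction in stroma, at 4.90, 16.2, 2.37 and 0.725 CPM in untreated GFP+ cells and at 0.542, 0.675, 0.589 and 0.163 CPM in tdTomato+ cells. After E+P it was at 0, 0.385 and 0.304 CPM in GFP+ cells and had 0 counts in tdTomato+ cells, both at about the counting floor. Its log2 fold change of 4.35 (SE 1.17, adjusted p = 0.00933) was not called when untreated mouse 1 or 3, or any E+P mouse, was left out (adjusted p up to 0.055).

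**Figure D3:**
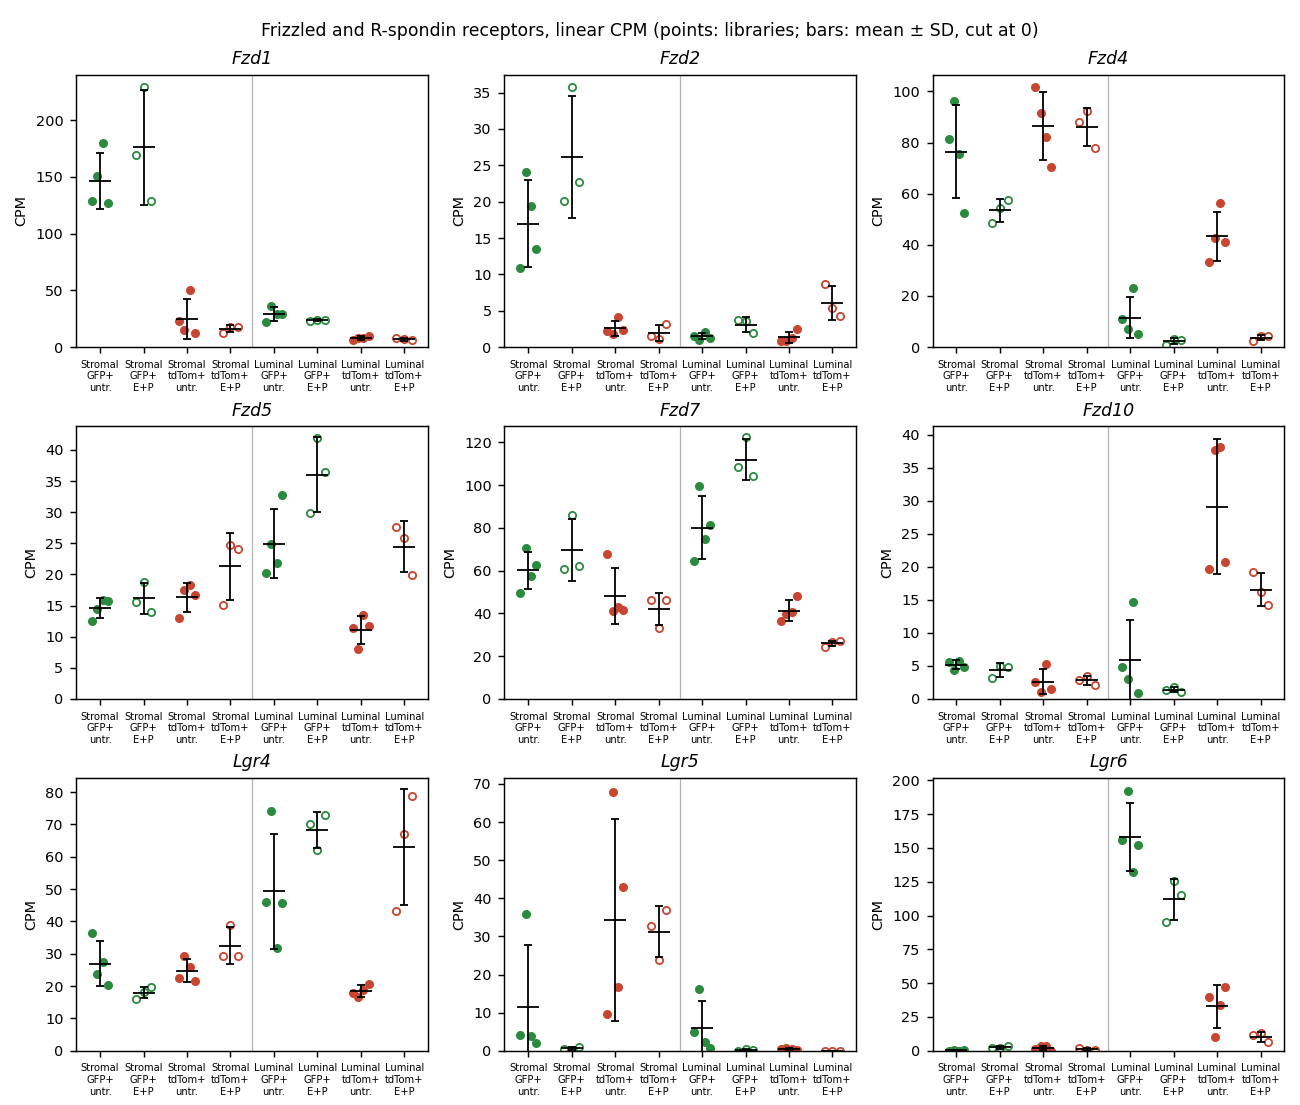
CPM of 9 Frizzled and LGR receptors in each library, with filled points for untreated mice, open points for E+P mice, and bars for the mean ± SD, cut at 0. Lgr6 is highest in GFP+ luminal cells and Fzd10 in tdTomato+ luminal cells, Fzd4 falls to 2.54 to 4.35 CPM in E+P tdTomato+ luminal cells, and Lgr4 is higher there.

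Rspo1 was higher in GFP+ luminal cells in all 7 mice, with a log2 fold change of 2.43 (SE 0.59, adjusted p = 0.00451). Axin2, a negative regulator that β-catenin switches on and that is widely read as a sign of Wnt activity, was higher by 1.89 (SE 0.43, adjusted p = 0.00276). Among the inhibitors, Sfrp2 was higher by 2.95 (SE 0.45, adjusted p = 0.000146) and Sfrp1 by 2.67 (SE 0.54, adjusted p = 0.000976), at levels of at most 10.3 and 8.61 CPM. Dkk3, a divergent member of the DKK family, was lower by 2.43 on the log2 scale (log2 fold change -2.43, SE 0.60, adjusted p = 0.00533). The calls of Rspo1 and Dkk3 were each lost in 4 of the 7 fits that left out a mouse, Axin2 in 3 and Fzd6 in 1, with each E+P mouse among those that ended Rspo1 and Dkk3. With the mouse as a block, Lrp5 was called as well (adjusted p = 0.00138).

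Hormone-sensing markers separated the luminal subsets, at 1095, 412, 1712 and 264 CPM in untreated GFP+ luminal cells of mice 1 to 4 and at 3594 to 5085 CPM in tdTomato+ cells. Luminal progenitor markers ran the other way, at 1962 to 3228 CPM against 226 to 923 CPM. Without the GFP+ libraries of mice 1 and 3, the 2 highest in hormone-sensing markers, 15 members were called. Wnt5a then differed by -3.35 (adjusted p = 4.8e-05), Fzd10 by -3.75, and Lgr5, Rspo1, Dkk3 and Axin2 were no longer called.

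The subset difference itself depended on lineage for 15 of the 41 members tested, 8 with a larger GFP+ minus tdTomato+ difference in stroma and 7 with a larger one in luminal cells, against 33.2% of all genes (16.3% and 17%). Wnt5a, Wnt11, Fzd10 and Dkk3 had a positive log2 fold change in stroma and a negative one in luminal cells, and Lgr5 and Rnf43 the reverse. Averaged over treatments, both effects were called for Wnt5a, Wnt11, Dkk3, Lgr5 and Rnf43, while the stromal effect of Fzd10, 0.76 (adjusted p = 0.0536), was not. The difference between lineages was 5.51 for Wnt5a (SE 0.68, adjusted p = 6.14e-07), 4.15 for Dkk3 (SE 0.62, adjusted p = 8.54e-06), 3.67 for Fzd10 (SE 0.57, adjusted p = 9.83e-06) and 3.56 for Wnt11 (SE 0.53, adjusted p = 4.99e-06). For Lgr5 it was -7.97 (SE 1.75, adjusted p = 0.000874) and was not called without E+P mouse 2 or 3, and for Rnf43 it was -4.65 (SE 0.64, adjusted p = 1.59e-06). The size for Lgr5 rests in part on E+P luminal cells, which had 0 counts in the tdTomato+ subset, and so on the prior count. In untreated mice the subset effects of Lgr5 were -1.61 in stroma and 3.63 in luminal cells, neither of them called.

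Other members differed in size or were called in a single lineage. Fzd2 was higher in GFP+ stroma without a call in luminal cells (difference 3.63, SE 0.44, adjusted p = 1.78e-07), as was Lrp6 (0.75, SE 0.09, adjusted p = 3.69e-07). Wnt5b (-3.32, SE 0.56, adjusted p = 3.49e-05), Lgr6 (-3.64, SE 0.68, adjusted p = 0.000132), Fzd5 (-1.19, SE 0.21, adjusted p = 3.62e-05), Lgr4 (-1.18, SE 0.22, adjusted p = 0.000107) and Fzd7 (-1.05, SE 0.18, adjusted p = 3.31e-05) had the larger difference in luminal cells. The differences of Wnt9a (1.77, adjusted p = 0.00477) and Fzd1 (1.13, adjusted p = 0.00765) were lost in 5 and 6 of the 7 fits that left out a mouse. Scaled by library size alone, the 16 members called split into 6 and 10 in place of 8 and 7.

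**Figure D4:**
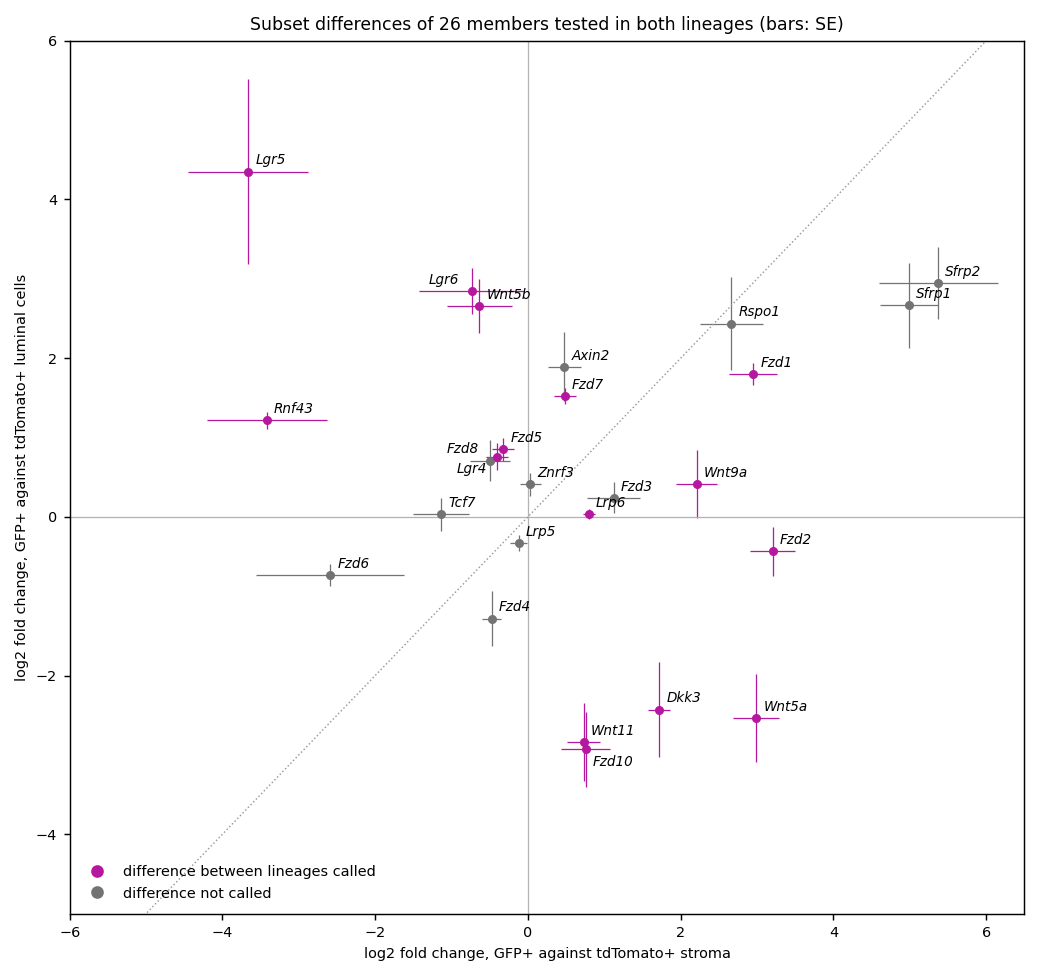
Log2 fold change of GFP+ against tdTomato+ cells in stroma (x axis) and in luminal cells (y axis) for the 26 members tested in both lineages, with bars for the SE and magenta for members whose difference between lineages was called. Wnt5a, Wnt11, Fzd10 and Dkk3 lie at the lower right and Lgr5 and Rnf43 at the upper left.

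E+P changed no member at the threshold in stroma. In GFP+ stroma 0 of 39 were called with edgeR, 9 had an unadjusted p under 0.05, and 0.231% of all genes were called; DESeq2 called 1, Lgr5. The largest shift among the R-spondins was that of Rspo2, at 0.582, 1.05, 0.180 and 0.445 CPM in untreated mice and 1.58, 6.03 and 8.07 CPM after E+P. The groups did not overlap, and the log2 fold change was 3.17 (SE 0.89, adjusted p = 0.148). Rnf43 was at 0.178 to 1.27 CPM in untreated mice and at 0, 0 and 0.0498 CPM after E+P, a difference of -4.29 (SE 1.30, adjusted p = 0.206) in a gene near the counting floor. Luminal epithelial markers in these libraries summed to 17.6 to 76.3 CPM untreated and 3.89 to 5.03 CPM after E+P, mouse 2 was the highest in both, and their part in this difference was not tested. The E+P and untreated libraries did not overlap for 13 of the 39 members, where 13.2% of all genes did not: Wnt5a, Wnt10b, Wnt16, Lgr4, Lgr5, Rspo3, Axin2 and Rnf43 were lower after E+P (8 members, 4.97% of all genes), and Lgr6, Rspo1, Rspo2, Sfrp1 and Dkk3 were higher (5 members, 8.23%). Axin2 was at 47.3, 90.3, 40.8 and 45.3 CPM in untreated and 25.1, 38.5 and 39.0 CPM in E+P GFP+ stroma.

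In tdTomato+ stroma 0 of 39 members were called with edgeR, 8 had an unadjusted p under 0.05, and 0.124% of all genes were called; DESeq2 called 5. Dkk3 was closest, at 28.1, 17.0, 33.8 and 23.2 CPM in untreated mice and 11.2, 9.86 and 11.8 CPM after E+P. The groups did not overlap, and the log2 fold change was -1.24 (SE 0.21, adjusted p = 0.0101, and 0.00654 with the replicate number as a block). That block joins different animals that share a number. Wnt10b had counts in 3 of 4 untreated libraries and in 0 of 3 after E+P (adjusted p = 0.0173), and the mean of Wnt2 was 3.98 CPM in untreated mice, at least 22.7-fold above the floor of the E+P libraries with their 0 counts, without passing the threshold (adjusted p = 0.0248). Of the 39, 4 did not overlap between treatments (10.8% of all genes): Wnt2, Wnt5a and Dkk3 were lower after E+P (5.13% of all genes) and Tcf7 higher (5.67%). Luminal epithelial markers in these libraries summed to 17.5 to 405 CPM in untreated mice and 2.68 to 32.7 CPM after E+P. Without untreated mice 2 and 3, the 2 highest in them, 4 members were called: Wnt2, Wnt5a, Wnt10b and Dkk3. Leaving out mouse 2 alone also gave 4 calls.

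The E+P effect did not differ between the 2 stromal subsets at the threshold for any of 39 members, with 11 at an unadjusted p under 0.05 and 0.045% of all genes called. DESeq2 called 2. Dkk3, higher in E+P GFP+ stroma (72.0, 56.0 and 67.0 CPM against 42.6, 47.3, 54.7 and 54.4 CPM untreated) and lower in E+P tdTomato+ stroma, gave the smallest adjusted p (difference 1.60, SE 0.28, adjusted p = 0.0294). Wnt2 followed at an adjusted p of 0.0867.

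After E+P a ligand and a ligase changed in GFP+ luminal cells, and Frizzleds, ligases and Lgr4 in tdTomato+ luminal cells. In GFP+ luminal cells 2 of 27 members were called, 1 in each direction, where 5.96% of all genes were (3.17% higher and 2.78% lower). The count was 1 without untreated mouse 1 or any E+P mouse and 4 without untreated mouse 4. Scaled by library size alone, both members called were lower. Wnt7b fell from 21.0, 20.4, 30.4 and 28.8 CPM in untreated mice to 11, 7.59 and 9.61 CPM after E+P, without overlap, by a log2 fold change of -1.44 (SE 0.17, adjusted p = 0.000341). Hormone-sensing markers in these cells summed to 264 to 1712 CPM untreated and 152 to 258 CPM after E+P, and basal markers to 42.3 to 87.2 CPM against 122 to 135 CPM. Their part in the differences between treatments was not tested. Znrf3, a ligase and target of the pathway, rose from 15.0, 12.7, 18.6 and 12.9 CPM to 25.1, 27.4 and 32.9 CPM, also without overlap. Its log2 fold change was 0.92 (SE 0.19, adjusted p = 0.00693), with an adjusted p of 0.0141 under the replicate block, and it was not called in 6 of the 7 fits that left out a mouse, all but that without untreated mouse 3.

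A wider gap in level was that of Rspo1, named here after its values were seen. It was at 4.13, 1.54, 11.9 and 19.5 CPM in untreated GFP+ luminal cells and at 141, 98.1 and 94.7 CPM after E+P. The groups were far apart, but the untreated libraries varied widely, and the log2 fold change of 3.56 (SE 0.80) had an adjusted p of 0.0121, or 0.00809 with the replicate number as a block. R-spondins summed to 57.4 CPM per kb in E+P GFP+ luminal cells and 4.77 in untreated ones. Axin2 was at 2.39, 0.820, 4.91 and 2.25 CPM in untreated mice and 18.1, 18.3 and 9.22 CPM after E+P, again without overlap (log2 fold change 2.49, adjusted p = 0.0117). The replicate-number block, which joins different animals, also brought in Fzd4 and Lgr5, both lower after E+P (adjusted p = 0.00509 and 0.00504), for 4 calls in all. Groups did not overlap for 9 of the 27 members, 5 higher and 4 lower after E+P, where 27.7% of all genes did not (15.1% higher and 12.6% lower).

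Tested members of tdTomato+ luminal cells gave 7 calls of 27, 4 higher and 3 lower after E+P, where 14.1% of all genes were called (7.63% higher and 6.44% lower). With library size alone as the scaling there were 11 calls, 4 higher and 7 lower. Lgr4, the broadly expressed R-spondin receptor, rose from 17.9, 16.6, 18.7 and 20.7 CPM to 43.4, 67.0 and 78.7 CPM. The lowest E+P library was above every untreated one, and the log2 fold change was 1.78 (SE 0.23, adjusted p = 0.000158). Fzd4 fell from 33.1, 42.6, 56.3 and 41.0 CPM to 2.54, 4.25 and 4.35 CPM, by a log2 fold change of -3.51 (SE 0.53, adjusted p = 0.000572). These 2 groups too were far apart.

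Fzd5 rose from 11.3, 8.03, 13.4 and 11.8 CPM to 27.7, 25.8 and 19.9 CPM (log2 fold change 1.16, SE 0.20, adjusted p = 0.00106). Fzd2 rose from 0.866, 0.797, 1.25 and 2.49 CPM to 8.67, 5.32 and 4.20 CPM (log2 fold change 2.17, SE 0.43, adjusted p = 0.0022). Fzd7 fell from 36.6, 39.8, 40.6 and 48.0 CPM to 24.5, 26.6 and 26.9 CPM (log2 fold change -0.65, SE 0.14, adjusted p = 0.00339). In each of these 3 Frizzleds the treatments were separate. The call of Fzd7 was lost in 5 of the 7 fits without a mouse and that of Fzd2 in 3, in both cases including the fits without E+P mouse 1 or 2.

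The ligases moved apart in tdTomato+ luminal cells. Rnf43 fell from 38.4, 27.9, 29.4 and 37.4 CPM to 9.24, 15.0 and 13.9 CPM (log2 fold change -1.37, SE 0.16, adjusted p = 5.59e-05), and Znrf3 rose from 9.10, 10.8, 13.0 and 10.9 CPM to 27.8, 18.9 and 18.1 CPM (log2 fold change 1.00, SE 0.20, adjusted p = 0.00219). Both pairs of groups were without overlap, and the Znrf3 call was lost without untreated mouse 1 or E+P mouse 1. In the same cells Dkk3 was at 0.758, 7.30, 2.21 and 15.6 CPM in untreated mice and 19.1, 54.2 and 41.7 CPM after E+P. It was called only with the replicate number as a block (adjusted p = 0.00163), as were Lrp5 (0.00134) and Lgr5 (0.00805). That block joins different animals. Wnt5a, Rspo1 and Axin2 did not overlap between treatments without being called. Of the 27 members, 16 did not overlap, 7 higher and 9 lower, where 35.5% of all genes did not (17.4% higher and 18.1% lower). Hormone-sensing markers summed to 1731 to 2913 CPM after E+P in these cells, against 3594 to 5085 CPM untreated, and basal markers to 37.2 to 63.8 CPM against 7.67 to 19.2 CPM. Their part in these differences was not tested.

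**Figure D5:**
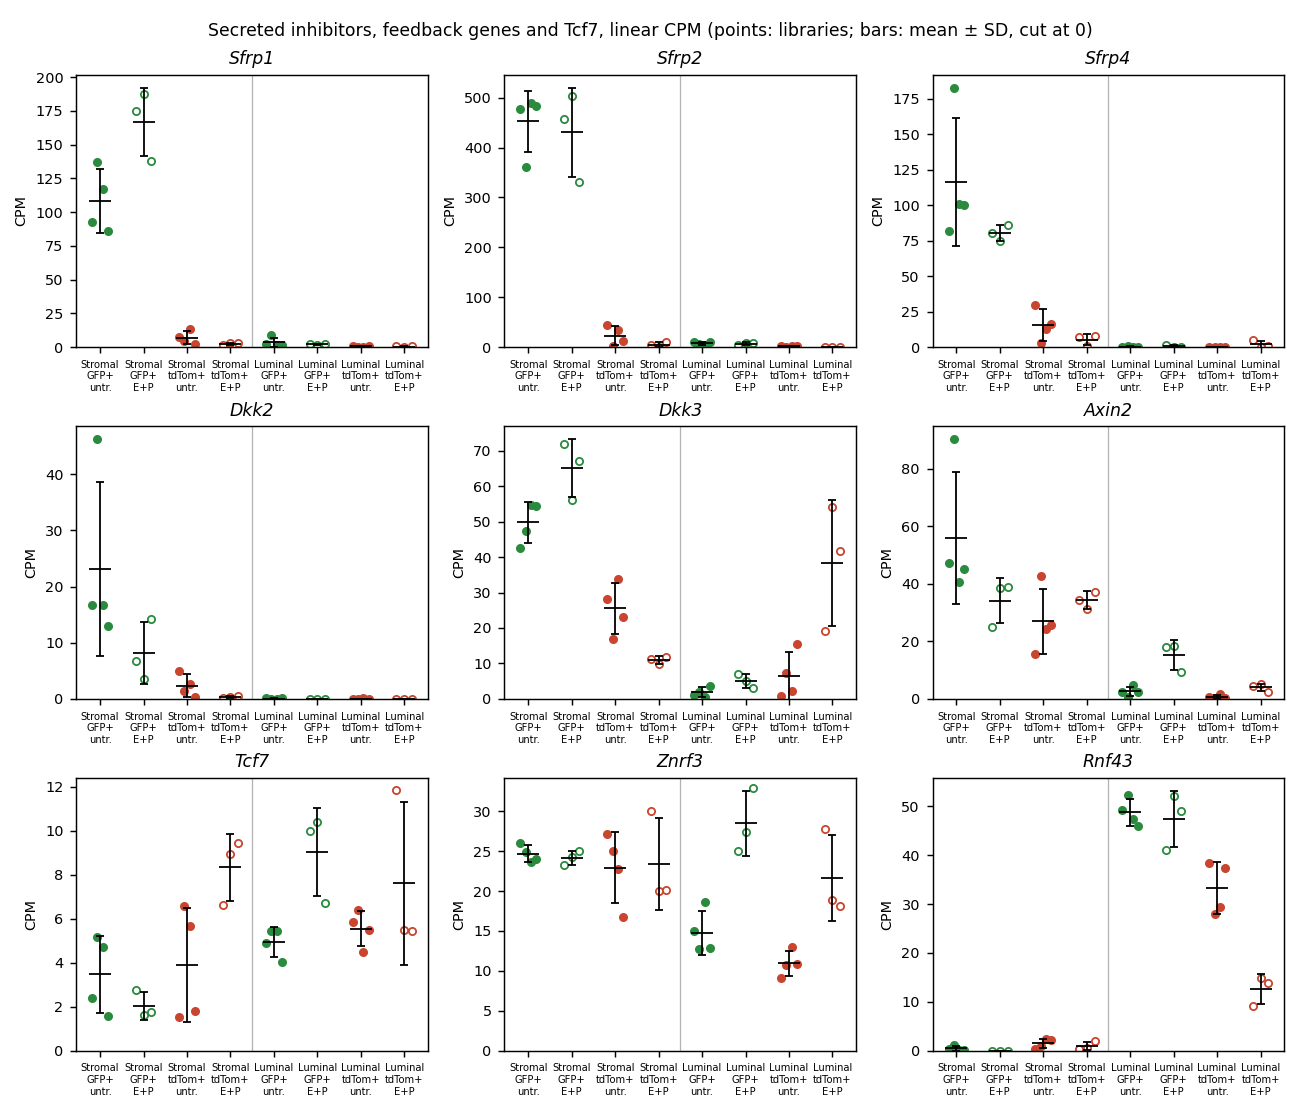
CPM of 9 secreted inhibitors, feedback targets and ligases in each library, with filled points for untreated mice, open points for E+P mice, and bars for the mean ± SD, cut at 0. Sfrp1, Sfrp2, Sfrp4 and Dkk2 are highest in GFP+ stroma, and in luminal cells Axin2 and Znrf3 lie higher in E+P than in untreated libraries while Rnf43 falls in tdTomato+ cells.

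The E+P effect differed between the luminal subsets for 2 of 27 members, where 2.27% of all genes differed (0.78% in the direction of these members, higher in GFP+ cells, and 1.49% in the other). Rnf43 was at 41.0 to 52.4 CPM in GFP+ luminal cells of both treatments and fell in tdTomato+ cells, a difference of 1.31 (SE 0.22, adjusted p = 0.00328). Fzd7 was at 64.7, 99.5, 74.8 and 81.5 CPM in untreated and 109, 123 and 104 CPM in E+P GFP+ cells, against its fall in tdTomato+ cells, a difference of 1.11 (SE 0.19, adjusted p = 0.00387). The calls were lost in 4 and 5 of the 7 fits that left out a mouse. Both were lost without the 2 untreated GFP+ luminal libraries highest in hormone-sensing markers, where Lgr4 was the single member called.

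Beyond these members, 52 other genes of the pathway were listed. In stroma 28 of the 42 tested differed between the subsets, 17 higher and 11 lower in GFP+ cells, against 42% of all genes. The ligand Wnt9b was higher (3.07 against 0.0761 CPM, log2 fold change 5.82, SE 0.85, adjusted p = 4.08e-05), as was the Wnt inhibitor Tpbg (82.6 against 3.85 CPM, log2 fold change 4.45, SE 0.46, adjusted p = 6.03e-06). The ligand Wnt4 was lower (1.12 against 8.94 CPM, log2 fold change -3.14, SE 0.56, adjusted p = 0.000233). So was the cyclin Ccnd1 (2.73 against 32.3 CPM, log2 fold change -3.61, SE 0.41, adjusted p = 5.97e-06). In luminal cells 22 of 40 differed (34.7% of all genes), 11 in each direction, among them the Wnt5a receptors Ror1, higher in GFP+ cells (22.1 against 3.12 CPM, log2 fold change 2.36, SE 0.39, adjusted p = 0.000301), and Ror2, lower there (1.33 against 7.81 CPM, log2 fold change -3.95, SE 0.65, adjusted p = 0.000255). Between stroma and luminal cells 34 of 42 differed (63.5% of all genes), 19 higher and 15 lower in stroma. The feedback gene Nkd1 (23.3 against 0.115 CPM, log2 fold change 8.74) and the inhibitor Apcdd1 (29.8 against 1.28 CPM, 4.81) were higher in stroma. Ccnd1 (17.5 against 161 CPM, -3.75) was lower there. Wnt4 was at a mean of 5.03 CPM in stroma and 56.4 CPM in luminal cells (log2 fold change -3.65, SE 0.36, adjusted p = 5e-09).

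E+P changed 0 of 42 of these genes in either stromal subset with edgeR, with 8 and 2 at an unadjusted p under 0.05. In GFP+ luminal cells it changed 5 of 40, 4 higher and 1 lower, against 5.96% of all genes. In tdTomato+ luminal cells it changed 8 of 40, 6 higher and 2 lower, against 14.1% of all genes. Tnfrsf19, a target of β-catenin, rose in both, by 4.34 in GFP+ cells (SE 0.44, adjusted p = 0.000117) and by 3.73 in tdTomato+ cells (SE 0.41, adjusted p = 3.06e-05). Ror2 fell in both, with log2 fold changes of -6.76 (SE 1.12, adjusted p = 0.00208) and -3.68 (SE 0.66, adjusted p = 0.00144). Ror1 rose in GFP+ cells from 6.85 to 37.4 CPM (log2 fold change 2.44, SE 0.51, adjusted p = 0.0082). In tdTomato+ cells Trabd2b, a membrane enzyme that inactivates Wnt proteins, rose from 6.34 to 83.6 CPM (log2 fold change 3.75, SE 0.57, adjusted p = 0.000642).

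Reads of some members cannot be told apart from those of an overlapping gene on the opposite strand, because the strand setting of the counting is not given in the sources used here. This concerns Wnt5a, Wnt7b, Wnt11, Fzd5, Fzd6, Rspo3, Sfrp2, Axin2, Lef1 and Notum, whose exons share between 152 and 1233 bases with such a gene. The library kit marked strand.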

How the data were processed

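The authors deposited raw read counts for each gene in 28 libraries, and these counts were used without realignment. The submitters' processing notes name STAR 2.5.2a and GRCm38.p5. The GENCODE release and the strand setting are not given in the sources used here, so symbols and exon lengths were taken from GENCODE M21, which held 50376 of the gene IDs, 45737 with the same version. Groups were taken from the sample titles. The members and gene lists were chosen with earlier results of these data known.

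Counts were scaled by TMM, filtered with filterByExpr and tested, two-sided, in R 4.3.3 by edgeR 4.0.16 (quasi-likelihood F-test, robust), on 14 stromal, 14 luminal or all 28 libraries (17783, 16538 and 19569 genes). p-values were adjusted by the Benjamini-Hochberg method across every gene of the comparison; genes were called under 0.01, the threshold of the study. Log2 CPM values have a prior count of 2. Log2 fold changes are those of the edgeR fit with its default prior count. Each SE is the size of the change over the root of its F statistic. A fold against a group at 0 was set against a floor of 3 counts in its shallowest library. At most 8 members in each direction with a mean of at least 1 CPM are given with statistics, by size of change, or the 2 with the smallest adjusted p where none was called. Some members outside that rule also have statistics. Among them are Axin2 for E+P in GFP+ luminal cells, Fzd10 between stromal subsets and Wnt2 for E+P in tdTomato+ stroma.

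Alternatives were DESeq2 1.42.0 (size factors and Wald test), limma 3.58.1 voom, library size only, no filter, a threshold of 0.05, a replicate block, pooled or fewer groups, and each mouse left out. Populations with the same number and treatment came from the same mouse by the sample titles. Their deviations from group means correlated at a mean of 0.0503 between stromal subsets and 0.156 between luminal subsets, against -0.0196 and -0.0601 between different mice. Untreated and E+P mice with the same number are different animals. In the E+P comparisons the replicate block was that number, which no label makes a batch or a pairing. Calls made under that block alone have no basis in the design. The main fits had no mouse term and took libraries of the same mouse as independent. Their p-values measure the spread between libraries within groups, not between mice alone. The fits were checked on simulated counts with 200 changed genes.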

Additional observations from a re-analysis of the deposited data

Results flagged for a closer look

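Among groups of 4 untreated libraries tested for a library far from the rest, 8 stood out, or 7.21% of those tested, and chance gives about 1 in 20. The untreated GFP+ stromal library of mouse 2 accounted for 4 of them, with Lgr5 at 35.9 CPM (others 1.96 to 4.15), Dkk2 at 46.2 CPM (13.0 to 16.8), Axin2 at 90.3 CPM (40.8 to 47.3) and Sfrp2 at 361 CPM (477 to 489). Sfrp1 of the same mouse stood at 8.61 CPM in GFP+ luminal cells (1.37 to 2.32). Wnt5a was at 79.1 CPM in GFP+ luminal cells of mouse 3 (6.68 to 11.4), Fzd7 at 67.6 CPM in tdTomato+ stroma of mouse 1 (40.9 to 42.8) and Lrp6 at 344 CPM in tdTomato+ luminal cells of mouse 4 (283 to 292).

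The GFP+ against tdTomato+ difference itself differed between stroma and luminal cells, by the test of that difference, for 15 of the 41 members tested. Of all genes tested, 33.2% differed in the same way, a share close to that of the members. In log2 units it was larger in stroma by 5.51 for Wnt5a, 4.15 for Dkk3, 3.67 for Fzd10, 3.63 for Fzd2, 3.56 for Wnt11, 1.77 for Wnt9a, 1.13 for Fzd1 and 0.75 for Lrp6. It was -7.97 for Lgr5, -4.65 for Rnf43, -3.64 for Lgr6, -3.32 for Wnt5b, -1.19 for Fzd5, -1.18 for Lgr4 and -1.05 for Fzd7. The value of Lgr5 rests in part on E+P luminal levels at about the counting floor. The E+P effect differed between luminal subsets by 1.31 for Rnf43 and 1.11 for Fzd7, again by the test of the difference.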

How the results depend on the processing

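No log2 fold change of a named member changed direction under any alternative run, and 48 of the 74 tested values of named members kept their side of the threshold throughout. The split of calls by direction did shift when library size alone was the scaling, as given below. Without a mouse, the members called ranged from 20 to 24 between stromal subsets, 12 to 18 between luminal subsets, 28 to 33 between lineages and 13 to 17 for the difference of the subset effect. For E+P the ranges were 0 to 0 in GFP+ stroma, 0 to 4 in tdTomato+ stroma, 1 to 4 in GFP+ luminal cells and 5 to 10 in tdTomato+ luminal cells, and for the difference of the E+P effect 0 to 0 in stroma and 0 to 2 in luminal cells. A threshold of 0.05 gave 4, 7 and 12 calls for E+P in tdTomato+ stroma, GFP+ luminal and tdTomato+ luminal cells, and 1 and 4 for the differences in stroma and luminal cells. The DESeq2 Wald test gave 1, 5, 8 and 11 for E+P in GFP+ stroma, tdTomato+ stroma, GFP+ luminal and tdTomato+ luminal cells, 23 for the difference of the subset effect and 2 for that of the E+P effect in stroma. With limma-voom the count for E+P in GFP+ luminal cells was 4. Without the filter on low counts E+P gave 4 in GFP+ stroma and 8 in tdTomato+ stroma, and the difference in stroma 7. With DESeq2 size factors or library size alone there was 1 call for E+P in tdTomato+ stroma, and library size alone gave 11 in tdTomato+ luminal cells. With the replicate block, E+P gave 1 call in tdTomato+ stroma and 4 in GFP+ luminal cells, and calls not named beside their results in the text were not changed by the block. When the groups compared were fitted alone, E+P in GFP+ stroma gave 1 call, and with treatments pooled the luminal subsets gave 11 and the stromal subsets 16 in place of 23. The cause of these changes was not tested.

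The last 3 alternatives were added after the data were seen. Without the 2 untreated tdTomato+ stromal libraries highest in luminal markers, E+P gave 4 calls in tdTomato+ stroma and the difference in stroma 1. Without the 2 untreated GFP+ luminal libraries highest in hormone-sensing markers, E+P gave 1 call in GFP+ luminal cells and the difference in luminal cells 1. Without the untreated GFP+ stromal library of mouse 2 no count moved by over 1.5 times. Scaling by library size alone moved the median of all genes to 0.14 between luminal subsets, -0.27 between lineages, -0.14 and -0.27 for E+P in GFP+ and tdTomato+ luminal cells, and -0.28 for the difference of the subset effect. The share of calls that were higher then went from 57.1% to 36.4% for E+P in tdTomato+ luminal cells and from 53.3% to 37.5% for the difference of the subset effect. Members under 0.308 CPM lie at the counting floor of the shallowest libraries, where a difference was not detectable at this depth.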
